A study of Homo sapiens with 8 samples.

Results

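The footprint output of METTL5-KO cells was described from 4 libraries of ribosome-protected fragments (RPF), 2 from METTL5-KO and 2 from METTL5-WT cells, out of 8 libraries in the study. All 11244 genes of the deposited translation table were included. METTL5 carries the methyltransferase activity that places an N6-methyladenosine on 18S ribosomal RNA. The knockout was made by CRISPR-Cas9, with guide RNAs meant to cut out exons of the gene, in cells labelled HepG2, a hepatoblastoma line. Both genotypes received cycloheximide, which arrests elongating cytosolic ribosomes, before lysis. Micrococcal nuclease then removed RNA outside ribosomes, and monosomes were taken from a sucrose gradient. The remainder of each lysate served as input RNA, so an RPF library and the input library of the same genotype and number share a lysate. Per the study's methods, single clones were expanded. Which clone gave which replicate was not given in the sources used here, so clone and genotype cannot be told apart, and p-values measure the spread between these libraries, which may be technical.

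A ribosome footprint is a short piece of mRNA shielded by a translating ribosome, and the number of footprints on a gene reflects how much of the cell's translation is spent on it at that moment. It depends both on how much mRNA is present and on how densely ribosomes occupy it. A long coding sequence collects more footprints than a short one for the same number of protein molecules made, so a share of footprints is a share of elongating ribosomes and not of protein copies. All shares below are percentages of the footprints of one library over the 11244 genes.

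The RPF libraries held 3970779 and 4592443 reads in METTL5-WT compared with 8626705 and 9255921 in METTL5-KO, so depth went with genotype. The cell label was checked against its markers. Of 13 hepatocyte markers other than keratins, among them ALB, AFP, APOA1, TTR and HNF4A, 0 were in the translation table, and 13 had at most 9 counts in every input library, out of 10710226 to 15307257 counts. Their summed counts were 7 and 7 in METTL5-WT compared with 6 and 15 in METTL5-KO. The keratins KRT8 and KRT18 were abundant, with 5671 to 11900 and 4614 to 7635 input counts. The libraries therefore lacked the defining products of the labelled line in both genotypes, and the cells are called here only by their label. Blood and endothelial markers summed to at most 13 and 14 counts. Of 6 fibroblast markers, COL1A1, DCN, LUM and PDGFRB were in the table, and the list summed to 597 and 685 counts in METTL5-WT compared with 843 and 1181 in METTL5-KO.

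METTL5 itself (chr2:169810081-169824931, hg38, minus strand) had 158 and 226 RPF reads in METTL5-WT compared with 41 and 21 in METTL5-KO. The groups did not overlap although the METTL5-KO libraries were deeper. Its footprints fell by 3.54 ± 0.28 on the log2 scale (SE; edgeR quasi-likelihood test, adjusted p = 1.29e-09), and its input RNA by 1.84.

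The promoters of genes from the group with the clearest gain are shown first. Interferon-stimulated genes and the antigen presentation genes are classically switched on through the interferon-stimulated response element, here searched as GAAANNGAAA on both strands in the 250 bases before the RefSeq start (GRCh38.p14), where overlapping matches were allowed. Of the genes in the translation table, 9226 had a promoter in the RefSeq table, and 2.23% of these held a match. Among 41 interferon-stimulated genes with a promoter 21 held one, and among 15 antigen presentation genes 7 did. The stretches below belong to the called members with the largest gain of share that held a match, B2M and TAP1 for antigen presentation and IFI6 and IFITM1 for the interferon-stimulated genes. Capitals mark the matches, and each stretch is written 5′ to 3′ on the gene's strand. A match describes the letters and is not evidence of a factor bound there.

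B2M, chr15:44711349-44711428, plus strand: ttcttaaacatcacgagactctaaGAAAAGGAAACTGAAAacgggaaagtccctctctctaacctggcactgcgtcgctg

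TAP1, chr6:32853783-32853862, minus strand: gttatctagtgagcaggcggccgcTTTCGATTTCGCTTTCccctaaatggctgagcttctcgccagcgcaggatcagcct

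IFI6, chr1:27672236-27672315, minus strand: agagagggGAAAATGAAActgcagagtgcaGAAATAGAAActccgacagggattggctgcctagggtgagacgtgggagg

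IFITM1, chr11:313960-314039, plus strand: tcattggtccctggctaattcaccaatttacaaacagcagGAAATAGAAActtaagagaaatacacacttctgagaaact

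The same search with the antioxidant response element, TGACNNNGC, gave matches in 8 of 51 antioxidant genes and 1 of 6 aldo-keto reductases, against 12.2% of all promoters searched. It also matched 9 of 41 interferon-stimulated and 3 of 15 antigen presentation genes.

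Footprints in METTL5-KO cells were spread over fewer genes than in METTL5-WT cells. The genes holding the top 50% of footprints numbered 635 and 666 in the METTL5-WT libraries and 538 and 536 in the METTL5-KO libraries. The 100 genes with most footprints took 23.996% and 23.1% in METTL5-WT compared with 26.4% and 26.7% in METTL5-KO. For both measures the genotypes did not overlap, but an exact permutation test of 2 against 2 libraries cannot give a p below 0.333. To turn one library into another, 12.60% to 12.96% of footprints would have to move between genes across genotypes, compared with 6.08% between the METTL5-WT replicates and 3.90% between the METTL5-KO replicates. These distances include counting noise and changed little when all libraries were thinned to the smallest.

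In the test over all genes, 2872 of 11244 were called (25.5%) at an adjusted p under 0.05 in edgeR's quasi-likelihood test, 1471 higher in METTL5-KO (13.1%) and 1401 lower (12.5%). These are the backgrounds against which the counts below are read. The fold changes are relative to a TMM scaling, in which a gene with a fold change of 0 had a footprint share lower by 0.13 on the log2 scale in METTL5-KO. Scaling by library totals instead moved the share of higher genes among the calls from 51.2% to 31.4%. Where this left a described group without more calls in the direction given, its counts under library totals stand beside it. In 62.9% of all genes the footprint shares of the genotypes did not overlap, 22.1% with METTL5-KO higher and 40.8% with METTL5-WT higher. Genes were sorted by symbol into 45 functional classes, which together held 62.7% of footprints in METTL5-WT and 65.7% in METTL5-KO on average. In 22 classes both METTL5-KO libraries had a larger share than both METTL5-WT libraries, in 15 a smaller share, and in 8 the genotypes overlapped.

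**Figure D1:**
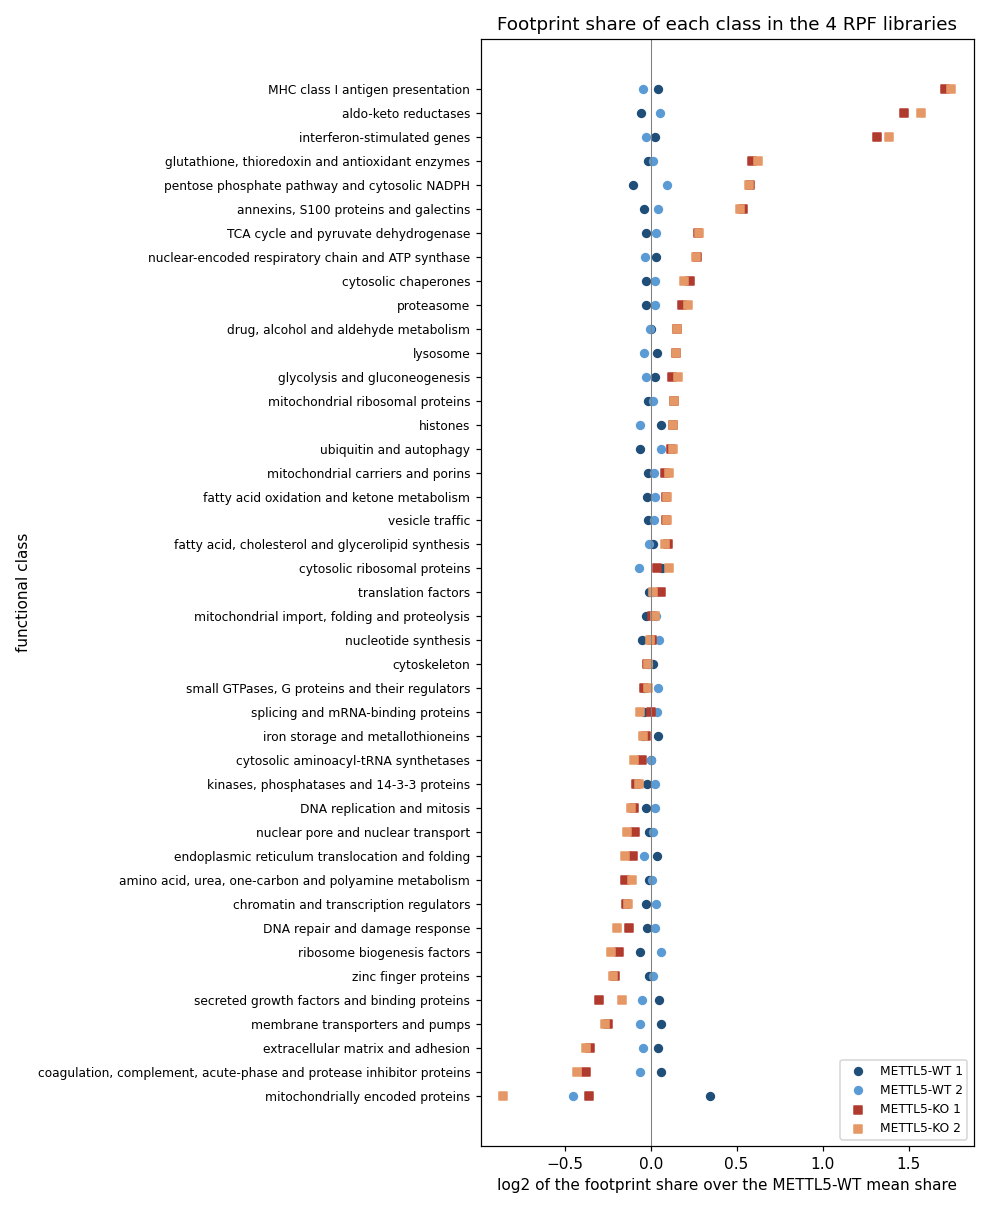
Share of all footprints taken by each functional class in the 4 RPF libraries, plotted as log2 of the share over the METTL5-WT mean (x axis), with circles for METTL5-WT, squares for METTL5-KO and classes on the y axis sorted by the ratio of the mean shares; classes of 1 or 2 genes are left out. Antigen presentation, aldo-keto reductase and interferon-stimulated genes lie more than 1 log2 unit to the right, and the mitochondrially encoded proteins lie farthest left with widely spaced replicates.

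The output of antigen presentation genes was 3.32 times as large a share in METTL5-KO. This class holds the MHC class I chains, their light chain, the peptide transporter and the immunoproteasome subunits that cut peptides for display. It took 0.222% and 0.209% of footprints in METTL5-WT compared with 0.705% and 0.722% in METTL5-KO, and all METTL5-KO values lay above all METTL5-WT values. Of 18 members, 14 were called higher and 0 lower, with a median log2 fold change of 1.52 compared with -0.01 over all genes. The light chain B2M (chr15:44711487-44718851) held 58.0% of the class's footprints. It took 0.136% and 0.128% in METTL5-WT compared with 0.405% and 0.410% in METTL5-KO (log2 fold change 1.76 ± 0.09 SE, edgeR adjusted p = 1.92e-12). PSMB8, an immunoproteasome subunit, rose from 37 and 51 reads to 1750 and 1968 reads (log2 4.46 ± 0.15, edgeR adjusted p = 1.99e-16), and TAP1, a subunit of the peptide transporter, from 146 and 161 to 1171 and 1407 (log2 2.13 ± 0.13). The MHC class I heavy chain genes are near-identical over parts of their length, and reads were kept only when they mapped to 1 place, so their levels are uncertain.

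Interferon-stimulated genes were the class with the largest fraction of called members among those of 10 or more genes. Of 51, 46 were called higher and 0 lower, and the median log2 fold change was 1.89. The class took 0.298% and 0.288% of footprints in METTL5-WT compared with 0.730% and 0.766% in METTL5-KO. IFI6, a mitochondrial survival protein induced by interferon, had the largest gain of share in the class, with 201 and 253 reads in METTL5-WT compared with 7300 and 9242 in METTL5-KO (log2 4.25 ± 0.12, edgeR adjusted p = 2.43e-17). IFITM1, a membrane protein that hinders virus entry, had 332 and 410 reads in METTL5-WT compared with 3579 and 3855 in METTL5-KO. The glycoprotein LGALS3BP held the largest share of the class and rose less, from 0.069% and 0.057% to 0.076% and 0.081% (log2 0.46 ± 0.10, edgeR adjusted p = 0.00222). Among called genes with at least 4 RPF reads in each library and a mean of at least 50, the 5 largest log2 rises all belonged to these 2 classes. These 5 genes reached that mean only through the METTL5-KO libraries, where they were high. Besides PSMB8 they were IFI27 (5 and 13 reads against 966 and 1166), IFI44L (4 and 9 against 432 and 459), the antiviral enzyme RSAD2 (5 and 11 against 501 and 530) and OAS2, an RNA sensor that makes 2′-5′ oligoadenylate (5 and 5 against 186 and 223). The METTL5-WT counts of the last 4 are so low that their folds, 4.39 to 5.94 on the log2 scale, are imprecise.

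**Figure D2:**
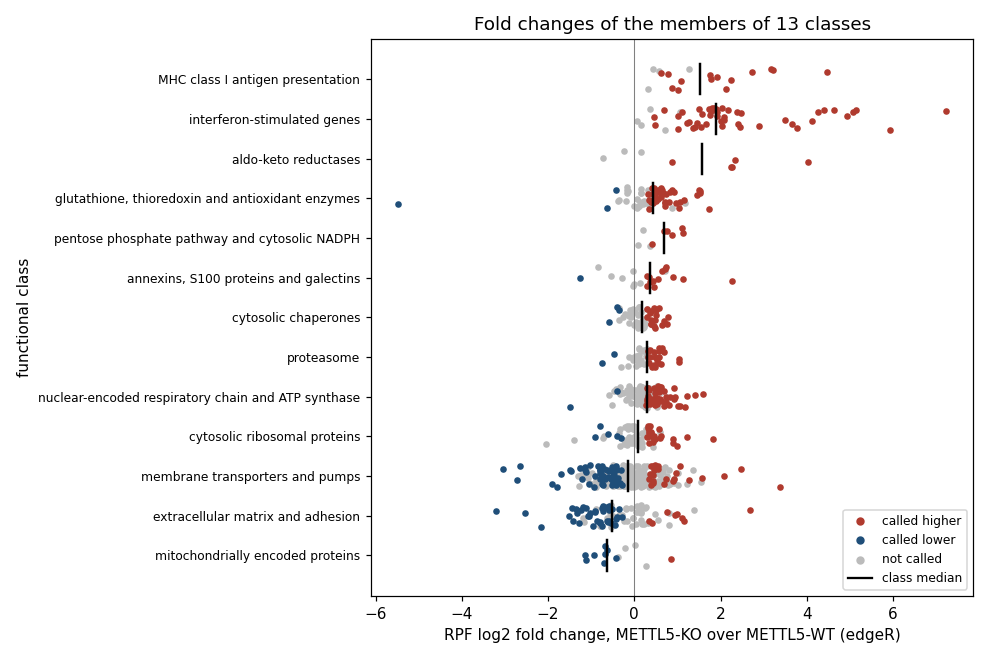
RPF log2 fold change of each member gene (x axis, METTL5-KO over METTL5-WT, edgeR) in 13 classes (y axis); red points were called higher, blue points lower and grey points were not called, and the black bar is the class median. The medians run from 1.89 in interferon-stimulated genes to -0.62 in mitochondrially encoded proteins, and the antioxidant class holds 1 gene, MGST1, far to the left at -5.47.

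Enzymes of glutathione, thioredoxin and antioxidant metabolism formed a larger gain in absolute terms. Their share was 1.21% and 1.24% in METTL5-WT compared with 1.84% and 1.89% in METTL5-KO, a gain of 0.642 percentage points, which exceeded that of antigen presentation (0.498) and of interferon-stimulated genes (0.455). Of 67 members 37 were called higher and 3 lower. NQO1, a quinone reductase, held the largest share of the class and took 0.095% and 0.100% in METTL5-WT compared with 0.228% and 0.279% in METTL5-KO (log2 1.51 ± 0.10, edgeR adjusted p = 1.35e-10). MGST1, a membrane-bound glutathione transferase, went the other way, with 778 and 806 reads in METTL5-WT compared with 45 and 23 in METTL5-KO. Under the same read limits this was the largest log2 fall among called genes, and MGST1 passed the limit on the mean through METTL5-WT. Without either METTL5-KO library the count of members called higher was 26 or 24.

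The aldo-keto reductases, which reduce carbonyls and steroids with NADPH, and the pathway that supplies NADPH were also higher. The aldo-keto reductases took 0.088% and 0.096% in METTL5-WT compared with 0.255% and 0.273% in METTL5-KO, and 5 of 8 were called higher and 0 lower. AKR1C2 had 223 and 329 reads in METTL5-WT compared with 8010 and 9106 in METTL5-KO (log2 4.03 ± 0.12, edgeR adjusted p = 3.33e-17). Its family members are close in sequence, so reads could be lost or split between them. The pentose phosphate and cytosolic NADPH enzymes took 0.490% and 0.562% in METTL5-WT compared with 0.784% and 0.781% in METTL5-KO, with 6 of 9 called higher and 0 lower. Transketolase, TKT, held 48.8% of the footprints of that class and rose by 0.68 ± 0.09 on the log2 scale (edgeR adjusted p = 7.15e-06).

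Annexins, S100 proteins and galectins, calcium- and sugar-binding proteins of the cell periphery, had the largest gain of share of all 45 classes, 0.661 percentage points. They took 1.46% and 1.54% in METTL5-WT compared with 2.18% and 2.14% in METTL5-KO, and 13 of 22 were called higher and 1 lower. Under scaling by library totals the count was 8 higher and 4 lower, and without METTL5-KO replicate 1 or 2 it was 7 or 8 higher. Most of the class gain lay in S100A4, with 0.341 percentage points, and S100A6, with 0.194. S100A4 (chr1:153543613-153550136), a calcium-binding protein tied to cell motility, held 47.4% of the class's footprints and had the largest gain of any called gene. It took 0.654% and 0.738% of all footprints in METTL5-WT compared with 1.07% and 1.00% in METTL5-KO (log2 0.70 ± 0.09, edgeR adjusted p = 5.24e-06). S100A6 took 0.188% and 0.197% in METTL5-WT compared with 0.370% and 0.404% in METTL5-KO (log2 1.13 ± 0.09, edgeR adjusted p = 3.36e-09). S100P was the called member with the opposite direction and had 702 and 795 reads in METTL5-WT compared with 622 and 575 in METTL5-KO (log2 -1.26 ± 0.11).

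Protein folding and protein breakdown in the cytosol gained less. Cytosolic chaperones took 2.32% and 2.40% in METTL5-WT compared with 2.767% and 2.702% in METTL5-KO, with 18 of 49 called higher and 3 lower. CCT5, a subunit of the chaperonin that folds actin and tubulin, took 0.348% and 0.384% in METTL5-WT compared with 0.573% and 0.578% in METTL5-KO (log2 0.78 ± 0.09, edgeR adjusted p = 9.80e-07). The log2 ratio of the class share was 0.21 with CCT5 and 0.12 without it. Without METTL5-KO replicate 1 or 2, 11 chaperones were called higher. Proteasome genes took 1.04% and 1.08% in METTL5-WT compared with 1.20% and 1.23% in METTL5-KO, and 20 of 40 were called higher and 2 lower. PSMA5, a subunit of the core particle, rose by 1.03 ± 0.11 on the log2 scale, and the regulatory subunit PSMD7 fell by 0.74 ± 0.10.

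The shares of the nuclear-encoded respiratory chain, the TCA cycle and mitochondrial ribosomal proteins were higher in both METTL5-KO libraries, while those of mitochondrial import, folding and proteolysis and of the mitochondrially encoded genes overlapped between genotypes. The respiratory chain needs subunits from both genomes, the former made on cytosolic ribosomes and imported, the latter made on mitochondrial ribosomes. Nuclear-encoded subunits and assembly factors of the respiratory chain and ATP synthase took 2.24% and 2.14% in METTL5-WT compared with 2.65% and 2.63% in METTL5-KO, with 41 of 122 called higher and 2 lower. Scaling by library totals gave 26 higher and 6 lower, and leaving out METTL5-KO replicate 2 gave 25 higher. NDUFA4, a respiratory chain subunit, took 0.093% and 0.102% in METTL5-WT compared with 0.267% and 0.270% in METTL5-KO (log2 1.59 ± 0.09, edgeR adjusted p = 1.10e-11). The class member with most footprints, ATP5F1B of the ATP synthase, took 0.492% and 0.375% in METTL5-WT compared with 0.403% and 0.375% in METTL5-KO, and these ranges overlapped. Enzymes of the TCA cycle had 13 of 27 members called higher and 0 lower, and mitochondrial ribosomal proteins 29 of 80 higher and 3 lower; leaving out METTL5-KO replicate 1 or 2 lowered these counts of higher genes to 8 or 7 and to 16 or 20. The class of TCA cycle enzymes took 0.427% and 0.444% in METTL5-WT compared with 0.526% and 0.529% in METTL5-KO.

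The 13 mitochondrially encoded genes took 1.09% and 0.629% in METTL5-WT compared with 0.671% and 0.474% in METTL5-KO. Whether mitochondrial ribosomes were captured like cytosolic ones was not tested, so these shares may not compare with those of nuclear genes. The METTL5-WT replicates differed from each other as much as the genotypes did, and the ranges overlapped. Of these genes 8 were called lower and 1 higher, but without METTL5-WT replicate 1 the counts were 5 lower and 4 higher, and DESeq2 called 3 lower and 0 higher. MT-ND5, a subunit of complex I, took 0.158% and 0.081% in METTL5-WT compared with 0.058% and 0.042% in METTL5-KO (log2 -1.13 ± 0.19, edgeR adjusted p = 9.01e-05), and DESeq2 did not call it.

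Among the classes that lost share, genes of the extracellular matrix and adhesion had the most called members in proportion, leaving aside the mitochondrially encoded ones. These genes encode collagens, laminins, other matrix proteins, the receptors that hold cells to them, and adhesion proteins such as catenins. They took 1.18% and 1.11% of footprints in METTL5-WT compared with 0.897% and 0.882% in METTL5-KO, and 39 of 88 were called lower and 8 higher, with a median log2 fold change of -0.51. Without METTL5-KO replicate 2 the counts were 30 lower and 5 higher. FBLN1, the matrix glycoprotein fibulin, took 0.106% and 0.094% in METTL5-WT compared with 0.047% and 0.051% in METTL5-KO (log2 -0.91 ± 0.10, edgeR adjusted p = 2.94e-07). The adhesion and signalling protein CTNNB1, beta-catenin, was the called member with the largest gain, at 0.065% and 0.060% in METTL5-WT compared with 0.098% and 0.096% in METTL5-KO (log2 0.77 ± 0.10). Another catenin, CTNNA1, held the largest part of the class's footprints, 7.93%, and was also called higher (log2 0.35 ± 0.09, edgeR adjusted p = 0.00823).

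Membrane transporters and pumps took 1.70% and 1.56% in METTL5-WT compared with 1.37% and 1.36% in METTL5-KO. Of 243 members 52 were called lower and 23 higher, and without METTL5-KO replicate 1 or 2 the lower count was 28 or 34. SLC7A5, a carrier of large neutral amino acids, was both the largest member and the largest loss, with 0.110% and 0.092% in METTL5-WT compared with 0.066% and 0.069% in METTL5-KO (log2 -0.46 ± 0.10, edgeR adjusted p = 0.00150). Secreted coagulation, complement and protease inhibitor genes took 0.260% and 0.239% in METTL5-WT compared with 0.192% and 0.185% in METTL5-KO, with 4 of 16 called lower and 0 higher, and 2 lower without METTL5-WT replicate 1 or either METTL5-KO library. A single gene, CLU, held 78.0% of the footprints of this class. The class median log2 fold change was -0.08, compared with -0.01 over all genes. In this class the protease inhibitor A2M had 239 and 268 reads in METTL5-WT compared with 12 and 13 in METTL5-KO (log2 -5.26 ± 0.26, edgeR adjusted p = 3.04e-13).

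The components of ribosomes, the largest class by footprints, did not separate the genotypes by share. Cytosolic ribosomal proteins took 5.74% and 5.25% in METTL5-WT compared with 5.63% and 5.92% in METTL5-KO, and the genotypes overlapped. Of 78 members 22 were called higher and 5 lower, which became 11 and 11 under library totals and 14 and 2 without METTL5-KO replicate 1, and the median of 0.09 became -0.04. RPL37, the gene with most footprints in each of the 4 libraries, took 1.74% and 1.44% in METTL5-WT compared with 1.55% and 1.56% in METTL5-KO. RPS6, a small subunit protein, was the member with the largest gain and took 0.227% and 0.281% in METTL5-WT compared with 0.354% and 0.510% in METTL5-KO (log2 0.89 ± 0.13, edgeR adjusted p = 1.29e-05). RPS21 was the called member with the largest loss (log2 -0.81 ± 0.10, edgeR adjusted p = 1.16e-06). Ribosomal protein genes have many processed copies in the genome, and reads mapping to more than 1 place were not counted.

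Ribosome biogenesis factors took 1.68% and 1.82% in METTL5-WT compared with 1.54% and 1.49% in METTL5-KO. Their share was lower in both METTL5-KO libraries, while 11 of 118 members were called higher and 11 lower, which are 9.32% each and under the backgrounds of 13.1% and 12.5%. Library totals gave 7 higher and 29 lower, and leaving out METTL5-KO replicate 1 gave 6 and 9. NCL, the nucleolar protein nucleolin, held 14.7% of the class's footprints, with 0.2498% and 0.3353% in METTL5-WT compared with 0.198% and 0.177% in METTL5-KO (log2 -0.51 ± 0.11, edgeR adjusted p = 0.00130). Without NCL the log2 ratio of the class share was -0.13, compared with -0.21 with it.

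Histones took 4.06% and 3.73% in METTL5-WT compared with 4.27% and 4.26% in METTL5-KO, and 17 of 60 were called higher and 14 lower, which became 14 and 17 under library totals. Their median log2 fold change was 0.12 and was 0.00 under library totals. Single members went in opposite directions. HIST1H4E took 0.216% and 0.194% in METTL5-WT compared with 0.440% and 0.448% in METTL5-KO, whereas the H2A genes HIST1H2AM, HIST1H2AH and HIST1H2AG were among the 10 largest losses of the table, HIST1H2AH with 6123 and 6565 reads in METTL5-WT compared with 2734 and 3112 in METTL5-KO. Histone genes are near-identical copies, so reads could be lost or assigned unevenly between them, and their single values are uncertain.

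**Figure D3:**
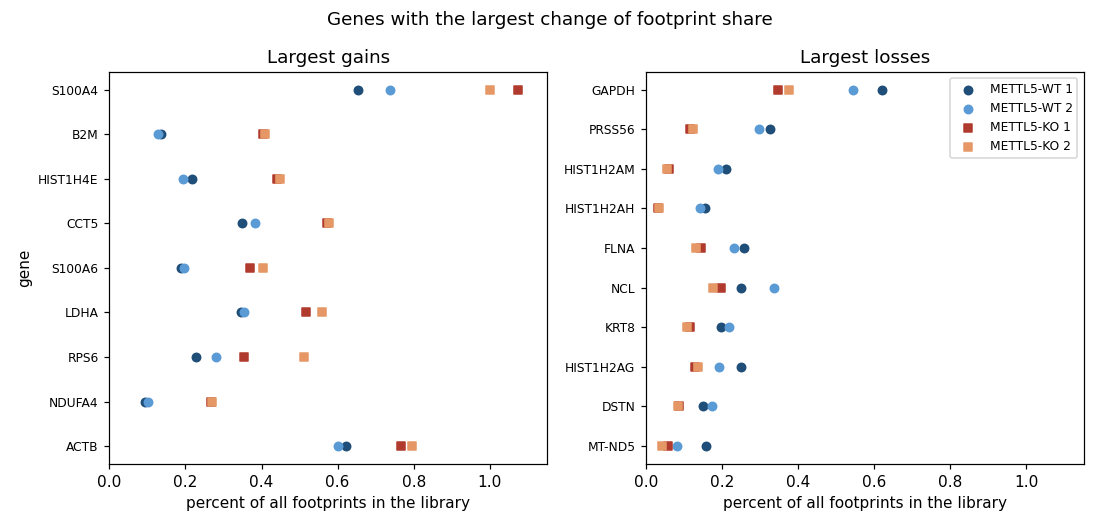
Percent of all footprints (x axis) taken by 9 of the 10 called genes with the largest gain of share, those in a functional class (left), and the 10 with the largest loss (right) among genes whose genotypes do not overlap (y axis), with circles for METTL5-WT and squares for METTL5-KO libraries. S100A4 leads the gains with 1.07% and 1.00% in METTL5-KO, and GAPDH leads the losses with 0.348% and 0.375%.

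Of the 10 genes with the largest gain of share, the 9 in a functional class took up 1.97 percentage points, and the 10 with the largest loss gave up 1.21. Besides those above, the gains included LDHA, which converts pyruvate to lactate, at 0.346% and 0.354% in METTL5-WT compared with 0.518% and 0.559% in METTL5-KO, and ACTB, cytoplasmic actin, at 0.623% and 0.600% compared with 0.767% and 0.795%. The loss of GAPDH, a glycolytic enzyme, was the largest of any called gene, from 0.621% and 0.543% in METTL5-WT to 0.348% and 0.375% in METTL5-KO (log2 -0.56 ± 0.10, edgeR adjusted p = 0.000150). Glycolysis as a class nevertheless took a larger share in METTL5-KO, 2.699% and 2.761% compared with 2.52% and 2.43%, with 8 of 24 members called higher and 5 lower, and a median log2 fold change of -0.07, opposite in sign to the share. Under library totals 7 were called higher and 8 lower. Counted per codon, this class difference reversed to -0.01 on the log2 scale. PRSS56, a trypsin-like serine protease, had 12893 and 13640 reads in METTL5-WT compared with 10063 and 11357 in METTL5-KO, and with the deeper METTL5-KO libraries its share went from 0.325% and 0.297% to 0.117% and 0.123% (log2 -1.25 ± 0.10, edgeR adjusted p = 9.60e-10). The keratin KRT8, the actin crosslinker FLNA and the actin-severing protein DSTN completed the losses with log2 fold changes of -0.77, -0.70 and -0.79.

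The footprint changes were then set beside the input RNA of the same lysates, since footprints follow both mRNA level and ribosome occupancy. Of the 2872 footprint calls, 1187 (41.3%) were also input calls in the same direction. Over all genes, 2637 of 11244 (23.5%) were input calls in either direction, 1418 higher and 1219 lower. The 41.3% counts 1 direction per gene and the 23.5% counts both, so the like background is lower than 23.5%. A footprint change beyond the input change was tested as an interaction of genotype and library type in edgeR over all 8 libraries. Of the footprint calls 535 (18.6%) were also called in it, in the same direction. Both tests use the same RPF reads, so this overlap is not independent. The interaction called 760 of 11244 genes (6.76%), 350 higher (3.11%) and 410 lower (3.65%). Its count ranged from 204 to 1008 when single lysates were left out.

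In antigen presentation, aldo-keto reductase and interferon-stimulated genes the input share had log2 ratios of 1.70, 1.55 and 1.44, next to 1.73, 1.52 and 1.35 in footprints. The interaction called 0 of 18, 0 of 8 and 2 of 51 members of these classes, 1 of the last higher and 1 lower. In annexins, S100 proteins and galectins the log2 ratio was 0.53 in footprints and 0.08 in input, and the interaction called 4 of 22 higher and 1 lower. In chaperones the ratios were 0.21 and -0.11, with 6 of 49 called higher and 1 lower, and in the proteasome 0.20 and 0.01, with 8 of 40 called higher and 0 lower. Antioxidant enzymes had 0.61 in footprints and 0.35 in input, and the interaction called 11 of 67 higher and 1 lower.

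Among the genes named above, the change beyond input was 1.38 on the log2 scale for NDUFA4 (edgeR interaction, adjusted p = 9.24e-07), 1.12 for NQO1 (adjusted p = 8.06e-05), 0.85 for CCT5 (adjusted p = 0.00113) and 0.74 for S100A4 (adjusted p = 0.0124). For B2M it was 0.17 (adjusted p = 0.517) and for IFI6 0.21 (adjusted p = 0.492), which does not show that they followed their mRNA exactly. MGST1 had a value of 3.07, with log2 fold changes of -8.53 in input RNA and -5.47 in footprints. This value is imprecise, since MGST1 had few reads in METTL5-KO.

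The class of iron storage genes and metallothioneins, which also holds the transferrin receptor TFRC, showed the opposite pattern in its summed share. The input share of the class was 0.425% and 0.422% in METTL5-WT compared with 0.564% and 0.636% in METTL5-KO. Its footprint share was 0.245% and 0.232% compared with 0.234% and 0.231%. The input shares did not overlap and the footprint shares did. Single members did not share the input rise: in input 2 of 13 were called higher and 5 lower, with a median log2 fold change of -0.10. The interaction called 3 of 13 members lower and 0 higher. FTL, the ferritin light chain that stores iron, had 1604 and 1555 RPF reads in METTL5-WT compared with 4212 and 4755 in METTL5-KO. Of all input reads FTL alone took 0.122% and 0.132% in METTL5-WT compared with 0.262% and 0.365% in METTL5-KO. Its log2 fold change was 0.56 ± 0.10 in footprints and 1.32 in input, and its change beyond input was -0.76 (edgeR interaction, adjusted p = 0.0108). The transferrin receptor TFRC, with the largest share of the class, took 0.111% and 0.109% in METTL5-WT compared with 0.100% and 0.094% in METTL5-KO and was not called (log2 -0.06 ± 0.09, edgeR adjusted p = 0.697).

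**Figure D4:**
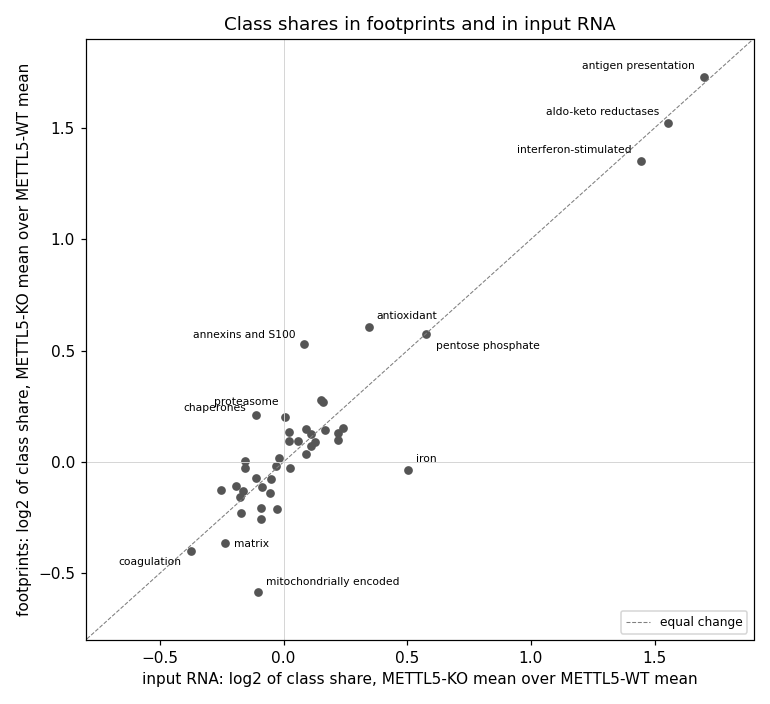
Log2 ratio of the mean class share, METTL5-KO over METTL5-WT, in footprints (y axis) against input RNA (x axis), with 1 point per functional class and a dashed line where both are equal; classes of 1 or 2 genes are left out. Antigen presentation lies near the line at 1.70 and 1.73, and the annexin and S100 class lies above it at 0.08 and 0.53.

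The genes that lost output were unevenly placed in the genome. Genes of chromosome 20 took 2.63% and 2.64% of footprints in METTL5-WT compared with 1.79% and 1.79% in METTL5-KO, and 135 of 309 were called lower and 6 higher. On chromosome 16 the shares were 3.60% and 3.62% compared with 2.86% and 2.94%, with 181 of 532 called lower and 23 higher. The input share of these chromosomes was lower too, with log2 ratios of -0.49 and -0.23 next to -0.56 and -0.32 in footprints. DSTN and RPS21 lie on chromosome 20, and GAPDH, KRT8, A2M and MGST1 on chromosome 12. The share of chromosome 12, which includes these genes, was 6.31% and 6.18% in METTL5-WT compared with 5.68% and 5.62% in METTL5-KO. Its log2 ratio was -0.15 in footprints and -0.05 in input, where a gene with a fitted fold change of 0 had -0.13 in footprints. On it 104 of 602 genes were called lower (17.3%) and 79 higher (13.1%), compared with 12.5% and 13.1% of all genes. Chromosome 11, where LDHA and IFITM1 lie, went the other way, with 5.91% and 5.99% in METTL5-WT compared with 6.45% and 6.56% in METTL5-KO. Of its 648 genes 119 were called higher (18.4%) and 55 lower (8.49%), and its input log2 ratio was 0.15. Leaving out chromosomes 11, 12, 16 and 20 gave log2 ratios of 1.72 for antigen presentation, 1.28 for interferon-stimulated genes, 0.53 for antioxidant enzymes and -0.43 for matrix and adhesion genes. The part of a clone's chromosome make-up in these values was not tested.

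**Figure D5:**
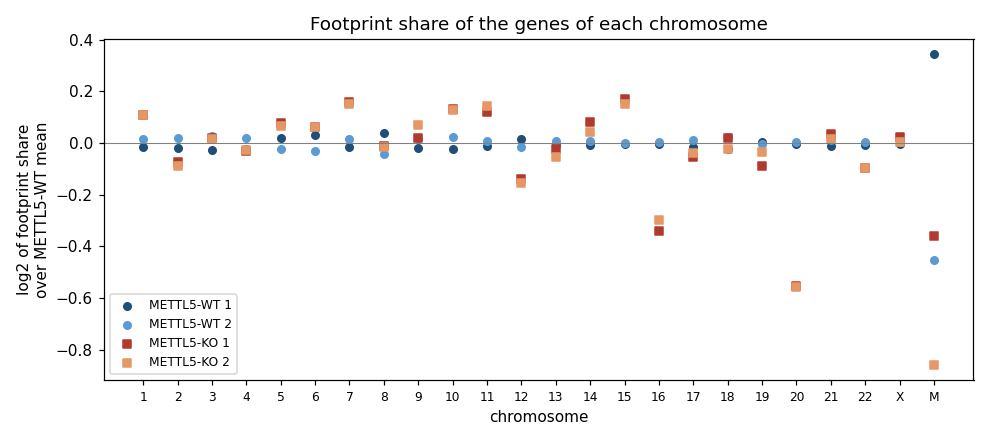
Log2 of the footprint share of the genes of each chromosome over the METTL5-WT mean (y axis) by chromosome (x axis, M for the mitochondrial genome), with circles for METTL5-WT and squares for METTL5-KO libraries. Chromosomes 20 and 16 lie lowest among the nuclear chromosomes in both METTL5-KO libraries, and the mitochondrial genome shows widely spaced replicates.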

How the data were processed

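RPF and input libraries of METTL5-WT and METTL5-KO cells (2 replicates each) were grouped by sample title. Per the study's methods, the authors trimmed RPF reads, took out those from rRNA and counted the rest through RiboToolkit with 1 mapping position allowed. Input reads were aligned to hg38 with STAR 2.7.3a, and raw counts of 60718 genes from featureCounts were deposited by the authors. The deposited signal values of the translation table are whole reads times a constant per library, despite the name RPKM. Division gave whole reads for 100% of values (within 0.02), and input reads equal to the count table for 100%. The table lists only genes read in all 8 libraries, and 93.6% to 94.0% of input counts fall in it. A log2 fold change per gene and its p-value, deposited from the authors' own comparison, were not used.

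Reads were tested with edgeR 4.0.16 (TMM, quasi-likelihood, no filter, two-sided, Benjamini-Hochberg) in R 4.3.3. Alternatives used DESeq2 1.42.0, limma 3.58.1 on log2(value + 1 or 5), size factors, library totals, thinning, GC correction and left-out libraries. Replicates differed by more than sampling noise. Coding lengths came from GENCODE 44 for 99.8% of genes. Scripts were tested on simulated data. Amino acid make-up of the output was planned and not analysed here. Classes, members and tests were chosen with earlier results of these data known, and 5 of the 45 classes (mitochondrially encoded, chromatin, kinases, GTPases, repair) were added after the table was seen. Named genes were METTL5, the 10 largest gains and losses of share among called genes with non-overlapping genotypes, the 5 largest log2 rises and falls among called genes with at least 4 reads in each library and a mean of at least 50, the largest member, gain and loss of each described class, and the 10 genes with most footprints in METTL5-WT. The text gives only part of the genes this rule names, and 1 of them is not reported here. TAP1 and IFITM1 were added for their promoters.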

Additional observations from a re-analysis of the deposited data

How the results depend on the processing

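Of 2872 footprint calls, 2113 were called by DESeq2, and 2871 remained with DESeq2 size factors, 2853 after filterByExpr, 2398 after removal of a GC trend and 2291 after thinning to the smallest library. Library totals, an alternative chosen after seeing the data, gave 3117 calls. Leaving out 1 library gave 1696 to 3082 calls, the lowest without METTL5-KO replicate 2 (1699 without replicate 1); the lone library of a genotype was then assumed to vary like the other genotype. A rule of at least 2-fold with unadjusted p under 0.05 gave 857. The interaction gave 204 to 1008 calls without 1 lysate (204 without METTL5-WT replicate 1, 278 without replicate 2, 223 without METTL5-KO replicate 2). The replicate numbers did not pair the samples (r = 0.02 between genotypes over 8683 genes). A replicate block gave 3099 footprint calls, 3075 with GC correction, and a block on the lysate 917 interaction calls.

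The number of genes holding 50% of footprints differed by -113.5 between METTL5-KO and METTL5-WT, and by -68 counted per codon. Of class shares whose genotypes did not overlap, per-codon counting reversed translation factors (log2 -0.063), glycolysis (-0.012), mitochondrial carriers (-0.026), drug metabolism (-0.055) and chromatin regulators (0.042). Cytoskeleton reversed with GC correction (0.036) and without chromosomes 11, 12, 16 and 20 (0.016), and ubiquitin and autophagy without their largest member (-0.0034). Beside these reversals, 32 of 45 class ratios moved per codon and 8 stayed the same. Without the largest member of each class 22 moved, and 16 moved when chromosomes 11, 12, 16 and 20 were left out. The sizes of the class ratios therefore depended on how and over which genes footprints were counted. The number of non-overlapping classes, which does not measure those sizes, stayed between 35 and 43 of 45. The cause of these differences was not tested. With 2 libraries a group and about double the depth in METTL5-KO, small class differences rest on few libraries.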

Other observations

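Genes of other identities were abundant in both genotypes and were chosen after their values were seen. KRT7, a keratin of simple epithelia, took 0.157% and 0.162% of footprints in METTL5-WT compared with 0.134% and 0.135% in METTL5-KO, and was not called. The basal keratin KRT17 took 0.0517% and 0.0435% compared with 0.0444% and 0.0443%, and was not called. ALPI, an intestinal alkaline phosphatase, took 0.123% and 0.115% compared with 0.0825% and 0.0860%, and the placental enzyme ALPP took 0.0559% and 0.0550% compared with 0.0182% and 0.0184%. Both were called lower. The adhesion gene EPCAM had 0 counts in all 4 input libraries, and CDH1 had 3 to 14. ALPI and ALPP are close in sequence, and their single values are uncertain.

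Genes of lysosomes and vesicle traffic also took a larger share in both METTL5-KO libraries. Lysosomal genes took 0.739% and 0.701% in METTL5-WT compared with 0.798% and 0.797% in METTL5-KO, with 20 of 58 called higher and 5 lower, compared with 13.1% and 12.5% of all genes, and with 13 higher and 8 lower under library totals. Vesicle traffic genes took 2.19% and 2.24% compared with 2.36% and 2.36%, with 54 of 248 called higher and 15 lower. Under library totals 30 were called in each direction, and without METTL5-KO replicate 1 or 2 the higher count was 23 or 26.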
